A study of Homo sapiens with 10 samples.

Results

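The 9 genes described here encode enzymes that turn farnesyl diphosphate into squalene and squalene into cholesterol. They are FDFT1, SQLE, LSS, CYP51A1, MSMO1, NSDHL, EBP, SC5D and DHCR7. Each was taken by its gene name, and each was found once in both expression tables, so that 9 of 35606 listed genes were used. Values are given as CPM, read counts scaled to a common library size. All 9 passed the filter of a mean of at least 1 CPM in both tables, and the lowest value of any of them in a sample was 17.2 CPM.

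RNA-seq was performed in 10 samples of the established cell line QGP-1, which derives from a human neuroendocrine tumor of the pancreas. The samples form 5 groups of 2. In the knockdown table, QGP-1 cells expressing a nuclease-dead Cas9 fused to the KRAB repressor (CRISPRi) carried either the control guide sgNC or the guide sgPIKFYVE-1. dCas9-KRAB was expressed from the ubiquitin C promoter on the lentiviral vector of the guide, the cells were selected with puromycin, and the knockdown rests on a single guide. In the drug table, QGP-1 cells labelled WT received DMSO, 1 µM apilimod, an inhibitor of the lipid kinase PIKfyve, or 100 nM Torin-1, an inhibitor of mTOR. The labels give 24 h for both drugs, whereas the legends of the study give a shorter time. The labels do not say that replicates came from separate cultures, so p-values measure only the spread between these samples, which may be technical.

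Cholesterol is built from acetyl-CoA in a long chain of reactions that are carried out mostly at the endoplasmic reticulum. Squalene synthase commits isoprenoids to sterols, squalene is then oxidized and folded into lanosterol, and the remaining enzymes strip methyl groups from lanosterol and move or reduce its double bonds. Transcription of these genes is known to be driven by the sterol-regulated factor SREBP2, which works at promoters together with factors such as NF-Y, a protein that binds CCAAT boxes, and Sp1, which binds GC boxes. Neuroendocrine cells also use cholesterol in the membranes of their secretory granules.

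PIKFYVE, the target of the guide, was listed at 101 and 97.5 CPM with sgNC and at 10.9 and 12.5 CPM with sgPIKFYVE-1, so that its mean in the knockdown was 11.8% of the control. From the value of a single read, the library size after scaling was estimated at 9.12 M to 13.2 M per sample, so that 3 reads are worth 0.227 to 0.329 CPM. This size includes the scaling between samples and is not the number of reads itself. Of 10 neuroendocrine markers, 9 had at least 1 CPM in every sample, and NEUROD1 did not exceed 0.7 CPM. Of 15 markers of fibroblasts, endothelium, immune cells, acinar cells and hepatocytes, 11 stayed under 1 CPM in every sample. The exceptions were COL1A1, PECAM1 and CD68, which reached 9.60, 3.75 and 1.13 CPM, and PRSS1. The 3 acinar markers summed to 5.34 to 5.65 CPM with DMSO, 13.2 to 14.9 CPM with apilimod and 11.9 to 18.0 CPM with Torin-1, all of it PRSS1, since CPA1 and CELA3A were at 0 in every sample. PRSS1 was called higher by limma with apilimod (log2 fold change 1.21) and with Torin-1 (1.27). In the knockdown table PRSS1 did not exceed 0.329 CPM. The summed CPM of the mitochondrially encoded genes was 68258 to 68824 with sgNC and 85188 to 85832 with sgPIKFYVE-1, and that of the neuroendocrine markers was 7662 to 7668 with DMSO, 6668 to 6882 with apilimod and 9564 to 9808 with Torin-1. In the knockdown table the neuroendocrine sum was 7613 to 7920 CPM with sgNC and 6587 to 6836 CPM with sgPIKFYVE-1. The 4 fibroblast markers summed to 9.94 to 10.4 CPM with sgNC and 6.07 to 7.92 CPM with sgPIKFYVE-1, with COL1A1 called lower (log2 fold change -0.51, adjusted p = 0.0297 from limma). The replication-dependent histone genes summed to 239 to 242 CPM with DMSO, 215 to 223 with apilimod, 302 to 326 with Torin-1, 256 to 268 with sgNC and 286 to 287 with sgPIKFYVE-1. The part of these shifts in the results below was not tested.

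In the knockdown and with apilimod all 9 enzymes were higher than in the control of their own table, and with Torin-1 all 9 were lower. The summed level of the 9 enzymes was 703 and 721 CPM with sgNC and 1487 and 1476 CPM with sgPIKFYVE-1, a 2.08-fold difference of the means. With DMSO it was 895 and 906 CPM, with apilimod 3870.3 and 3961 CPM, and with Torin-1 434 and 438 CPM. Apilimod thus stood at 4.35-fold of DMSO and Torin-1 at 48.4% of DMSO. In bulk RNA, fewer cells with a transcript and less transcript per cell cannot be told apart.

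**Figure D1:**
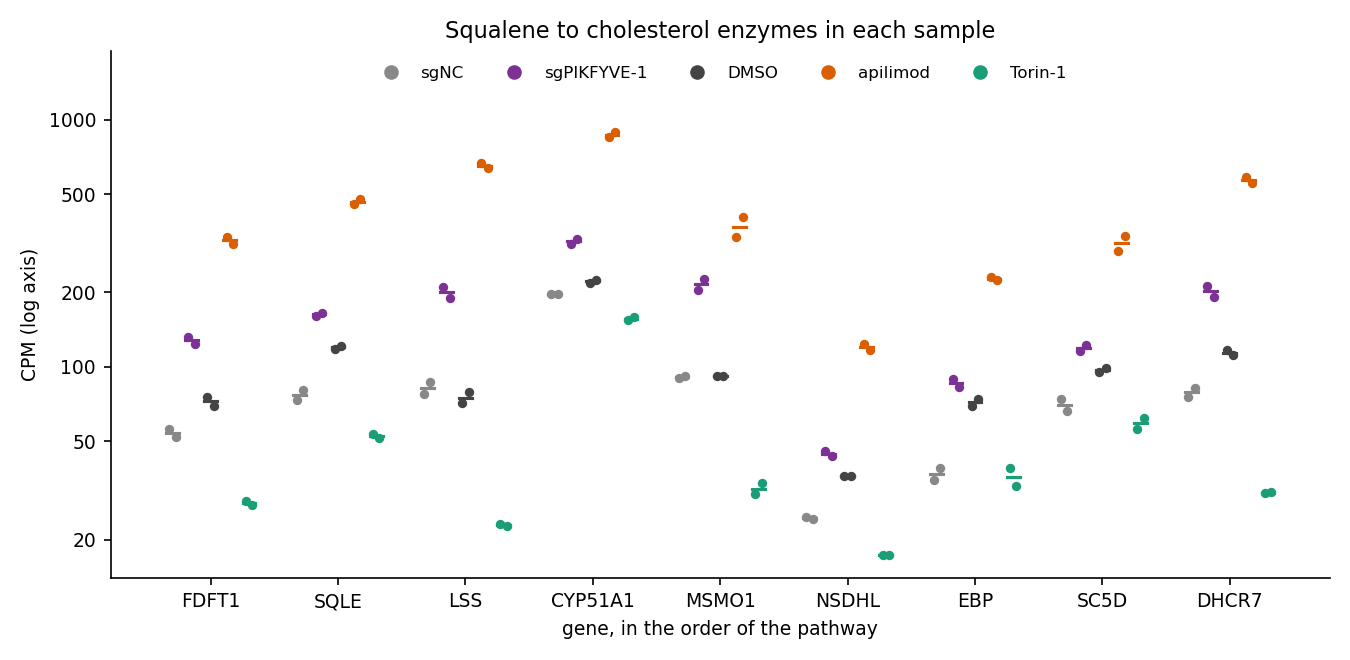
CPM of the 9 enzymes on a log axis in pathway order. Each point is 1 sample and each short line the mean of 2 samples; in every gene the apilimod points lie above the DMSO points and the Torin-1 points below them, and the sgPIKFYVE-1 points lie above the sgNC points.

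The test was limma on log2(CPM + 1) over all genes whose mean in the table reached 1 CPM, with Benjamini-Hochberg adjustment over all of them and a threshold of 0.05. All log2 fold changes below are on that scale, which slightly understates the change of low genes. In the knockdown, 9 of 9 enzymes passed as higher, where 21.6% of the 13591 genes tested did so. With apilimod, 9 of 9 passed as higher, against a background of 5.75% of 13520 genes. With Torin-1, 9 of 9 passed as lower, against 21.8% of the same genes. The opposite direction was called in 20.9%, 2.79% and 16.6% of genes. The groups did not overlap for any of the 9 enzymes in these comparisons, while non-overlap in the same direction was met by 35.4% of genes in the knockdown, 24.8% with apilimod and 36.6% with Torin-1. If an absolute log2 fold change of at least 1.5 is required as well, 0 of 9 enzymes are called in the knockdown, 9 with apilimod and 2 with Torin-1, DHCR7 and LSS, against 0.405%, 0.422% and 0.192% of genes in the same directions. The median log2 fold change of the 9 enzymes was 1.20 in the knockdown, 1.97 with apilimod and -1.17 with Torin-1, whereas the median over all genes tested was -0.0042, -0.0057 and -0.012. Knockdown and drug samples were scaled separately, so values of the 2 tables are set side by side and were not tested against each other. The apilimod and Torin-1 comparisons share their DMSO samples.

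The promoters of 7 of the 9 enzymes are in the RefSeq table used here (assembly GRCh38.p14), and FDFT1 and SQLE are not. In the 250 bases before the start of transcription, CCAAT was searched on both strands, so that ATTGG on the printed strand is also a match, and matches that overlap were counted separately. It was found in 6 of these 7 enzymes, all but CYP51A1, and in 32.0% of 35116 promoters. The start used for CYP51A1, chr7:92134477, lies inside the GENCODE gene, which begins at 92134803 on the reverse strand. Its whole window therefore lies inside that gene, as do the windows of EBP, SC5D and DHCR7 inside theirs. Bases before the GENCODE start of these genes were not searched. Here and for the motifs below, an enzyme was counted if any of its start sites held a match. The share of all promoters counts each start site by itself, of which these 7 enzymes have 9. Shown are LSS and DHCR7, which had the 2 largest fold changes in each comparison with a control, CYP51A1, which had the smallest in the knockdown and with Torin-1 and stood at place 5 of 9 with apilimod, and MSMO1 and NSDHL, which hold several boxes. Each is the longest stretch of these 250 bases that no GENCODE exon covers, printed 5′ to 3′ on the strand of the gene, with CCAAT and ATTGG in capitals.
LSS, chr21:46228825-46229024, reverse strand: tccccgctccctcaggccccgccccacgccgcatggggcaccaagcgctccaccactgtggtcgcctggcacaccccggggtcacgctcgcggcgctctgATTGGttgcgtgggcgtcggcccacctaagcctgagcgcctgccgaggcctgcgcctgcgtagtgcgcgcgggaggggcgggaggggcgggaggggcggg
DHCR7, first start site, chr11:71448436-71448643, reverse strand: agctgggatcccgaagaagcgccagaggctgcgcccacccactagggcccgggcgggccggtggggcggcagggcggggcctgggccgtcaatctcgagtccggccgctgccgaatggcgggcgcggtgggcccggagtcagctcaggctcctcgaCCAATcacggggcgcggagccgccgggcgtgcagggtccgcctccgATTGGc
MSMO1, chr4:165327419-165327622, forward strand: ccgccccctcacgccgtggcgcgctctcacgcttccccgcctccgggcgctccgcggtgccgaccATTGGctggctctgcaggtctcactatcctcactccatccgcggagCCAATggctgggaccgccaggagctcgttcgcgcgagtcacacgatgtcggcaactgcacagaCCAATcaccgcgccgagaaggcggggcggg
NSDHL, chrX:152830813-152830966, forward strand: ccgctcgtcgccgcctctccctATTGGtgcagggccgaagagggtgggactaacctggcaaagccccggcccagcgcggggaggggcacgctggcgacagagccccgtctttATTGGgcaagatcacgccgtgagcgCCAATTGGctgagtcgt
CYP51A1, chr7:92134531-92134603, reverse strand: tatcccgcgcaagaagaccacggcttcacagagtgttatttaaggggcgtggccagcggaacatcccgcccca

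NSDHL held 5 CCAAT matches in the 250 bases, MSMO1 4, EBP 3, the first start site of DHCR7 2, and LSS 1. The second start site of DHCR7 in the table held 0 CCAAT matches and 0 GC boxes. SC5D held 1 match, which lies within the window of both of its start sites. In all promoters 9.53% held 2 or more. In NSDHL, the matches that begin 113 and 110 bases before the start overlap in the printed run CCAATTGG. The GC box GGGCGG, on either strand, was found in 6 of 7 enzymes, all but NSDHL, and in 42.6% of all promoters, with 6 matches in LSS. A sterol regulatory element written as TCACNCCA, where N is any base, was found in 1 of 7, MSMO1, against 3.20% of all promoters, and the E-box CACGTG in 1 of 7, SC5D, against 6.34%. These matches describe letters in a window and are no measurement of binding. The number of CCAAT matches did not follow the order of the fold changes given below, since LSS with 1 match and MSMO1 with 4 both stood in its upper part.

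FDFT1 (ENSG00000079459) is squalene synthase, which joins a pair of farnesyl diphosphate molecules and is the first enzyme of the branch that makes only sterols. Its position is chr8:11795573-11839309, forward strand, in GENCODE release 29 (assembly GRCh38), which also gives the positions of the genes below. With sgNC it had 56.1 and 51.8 CPM and with sgPIKFYVE-1 133 and 124 CPM. With DMSO it had 75.3 and 69.5 CPM, with apilimod 335 and 314 CPM, and with Torin-1 28.5 and 27.6 CPM. The lowest apilimod sample was thus far above the highest DMSO sample, and both Torin-1 samples were far below DMSO. The log2 fold change was 1.23 (standard error 0.070) in the knockdown, 2.15 (0.070) with apilimod and -1.34 (0.070) with Torin-1, with adjusted p of 5.07e-11, 3.70e-11 and 7.20e-09 from limma.

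SQLE (ENSG00000104549, chr8:124998497-125022283, forward strand) is squalene epoxidase, a flavin enzyme regarded as a second control point of the pathway after HMG-CoA reductase. Its values were 73.5 and 80.8 CPM with sgNC and 161 and 165 CPM with sgPIKFYVE-1. In the drug table they were 118 and 121 CPM with DMSO, 454 and 478 CPM with apilimod, and 53.5 and 51.6 CPM with Torin-1. SQLE moved close to the middle of the 9 enzymes in each comparison. In the knockdown SQLE rose by 1.07 on the log2 scale (standard error 0.063, adjusted p = 8.31e-11 from limma), and with apilimod by 1.95 (0.058, adjusted p = 1.47e-11). With Torin-1 it was -1.17 (0.058), the median of the 9, with an adjusted p of 3.81e-09 from limma.

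LSS (ENSG00000160285, chr21:46188141-46228824, reverse strand) is lanosterol synthase, which folds oxidosqualene into the first sterol. With sgNC it had 77.3 and 86.9 CPM and with sgPIKFYVE-1 210.5 and 189 CPM. It had 71.2 and 78.9 CPM with DMSO, 665 and 638 CPM with apilimod, and 23.1 and 22.6 CPM with Torin-1. No other enzyme of the 9 differed by so large a fold between the drugs. In the knockdown LSS rose by 1.27 on the log2 scale (standard error 0.067, adjusted p = 1.83e-11 from limma). With apilimod it rose by 3.10 (0.068, adjusted p = 8.88e-13 from limma) and ranked 4 of 13520 genes from the highest. With Torin-1 the log2 fold change was -1.67 (0.068, adjusted p = 5.94e-10 from limma), which was rank 19 from the lowest.

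CYP51A1 (ENSG00000001630, chr7:92112151-92134803, reverse strand) is the cytochrome P450 that removes the 14-alpha methyl group of lanosterol and the target of azole drugs in its fungal form. It had 196 and 198 CPM with sgNC and 314 and 329.9 CPM with sgPIKFYVE-1. The drug samples held 219 and 224 CPM with DMSO, 848 and 894 CPM with apilimod, and 155 and 159 CPM with Torin-1. The groups did not overlap, yet CYP51A1 had the smallest of the 9 log2 fold changes in the knockdown and with Torin-1. In the knockdown it was 0.71 (standard error 0.049, adjusted p = 9.61e-10 from limma), with Torin-1 -0.50 (0.048, adjusted p = 3.17e-06), and with apilimod 1.97 (0.048, adjusted p = 2.03e-12). Exons of CYP51A1 are shared on the same strand with AC000120.2 and AC000120.3, which did not exceed 0.945 and 4.75 CPM in any sample, and its 3 listed pseudogenes did not exceed 1.15 CPM.

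MSMO1 (ENSG00000052802, chr4:165327623-165343160, forward strand) is the methylsterol monooxygenase that oxidizes the methyl groups at carbon 4. Its level was 90.3 and 92.0 CPM with sgNC and 205 and 227 CPM with sgPIKFYVE-1. With DMSO both samples had 92.2 CPM, with apilimod 335 and 402 CPM, and with Torin-1 30.5 and 33.9 CPM. The apilimod samples of MSMO1 had the widest spread of any enzyme and group, a coefficient of variation of 13.0%, against a median of 3.74% over the enzymes and groups. Its log2 fold change was 1.23 (standard error 0.061) in the knockdown, 1.98 (0.084) with apilimod and -1.49 (0.084) with Torin-1, with adjusted p of 6.36e-12, 7.92e-10 and 1.41e-08 from limma.

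NSDHL (ENSG00000147383, chrX:152830967-152869729, forward strand) encodes the dehydrogenase that follows MSMO1 in the removal of the carbon 4 methyl groups. Its replicates lay close together, at 24.7 and 24.2 CPM with sgNC and 45.6 and 43.4 CPM with sgPIKFYVE-1. With DMSO it had 36.1 CPM in both samples, with apilimod 124 and 117 CPM, and with Torin-1 17.3 and 17.2 CPM. Its lowest estimated read number in a sample, 186 with Torin-1, has a counting error of 7.33%, which is small beside the differences between groups. The log2 fold change was 0.84 (standard error 0.095) in the knockdown, 1.71 (0.083) with apilimod and -1.02 (0.083) with Torin-1, with adjusted p of 8.29e-07, 4.03e-09 and 6.22e-07 from limma.

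EBP (ENSG00000147155, chrX:48521158-48528716, forward strand) is the emopamil binding protein, a sterol isomerase that shifts the double bond from carbon 8 to carbon 7. It had 34.9 and 39.1 CPM with sgNC and 89.7 and 82.8 CPM with sgPIKFYVE-1. The DMSO samples had 69.5 and 74.2 CPM, the apilimod samples 231 and 224 CPM, and the Torin-1 samples 39.0 and 32.9 CPM. EBP had the smallest log2 fold change of the 9 with apilimod, 1.65 (standard error 0.081, adjusted p = 4.54e-09 from limma), but stood in the middle of them in the knockdown at 1.20 (0.082, adjusted p = 7.33e-10). With Torin-1 it was -0.98 (0.081, adjusted p = 7.10e-07 from limma).

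SC5D (ENSG00000109929, chr11:121292453-121308694, forward strand) is the sterol-C5-desaturase that adds a double bond and makes 7-dehydrocholesterol or its side-chain unsaturated form. Its values were 74.1 and 66.3 CPM with sgNC and 116 and 122 CPM with sgPIKFYVE-1. With DMSO it had 95.5 and 98.6 CPM, with apilimod 294 and 339.5 CPM, and with Torin-1 56.0 and 62.1 CPM. Only CYP51A1 had a smaller log2 fold change in the knockdown and with Torin-1. For SC5D these were 0.75 (standard error 0.069, adjusted p = 5.04e-08 from limma) and -0.71 (0.075, adjusted p = 7.37e-06), and with apilimod 1.69 (0.075, adjusted p = 1.40e-09).

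DHCR7 (ENSG00000172893, chr11:71428193-71452868, reverse strand) is 7-dehydrocholesterol reductase, the last step to cholesterol and the enzyme that competes with light-driven vitamin D synthesis for its substrate. With sgNC it had 75.7 and 81.8 CPM and with sgPIKFYVE-1 213 and 192 CPM. The drug samples had 117 and 111 CPM with DMSO, 585 and 555 CPM with apilimod, and 30.7 and 31.1 CPM with Torin-1. DHCR7 had the largest of the 9 log2 fold changes in the knockdown and with Torin-1, and the next after LSS with apilimod. They were 1.35 (standard error 0.064) in the knockdown, -1.85 (0.061) with Torin-1 and 2.31 (0.061) with apilimod, with adjusted p of 4.38e-12, 9.76e-11 and 3.71e-12 from limma. With Torin-1 it ranked 14 of 13520 genes from the lowest.

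Ordered by size, the log2 fold changes ran from DHCR7 through LSS, MSMO1, FDFT1, EBP, SQLE, NSDHL and SC5D to CYP51A1 in the knockdown. In that order the 95% intervals of all neighbours overlapped, and over the 36 pairs of enzymes they overlapped in 19. With apilimod the order was LSS, DHCR7, FDFT1, MSMO1, CYP51A1, SQLE, NSDHL, SC5D and EBP. There LSS (2.96 to 3.25) was separated from DHCR7 (2.18 to 2.44), while all later neighbours overlapped, as did 16 of the 36 pairs. With Torin-1 the order of the falls was DHCR7, LSS, MSMO1, FDFT1, SQLE, NSDHL, EBP, SC5D and CYP51A1, again with overlap between all neighbours and in 11 of 36 pairs. The position of an enzyme in the pathway did not run parallel to its place, since DHCR7, the last step, and LSS, an early one, led each order, and SC5D, next to DHCR7 in the pathway, stood near the end of each. By rank over all genes tested, the 9 enzymes lay between 81 and 545 of 13591 from the highest in the knockdown, between 4 and 48 of 13520 with apilimod, and between 14 and 1131 of 13520 from the lowest with Torin-1.

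**Figure D2:**
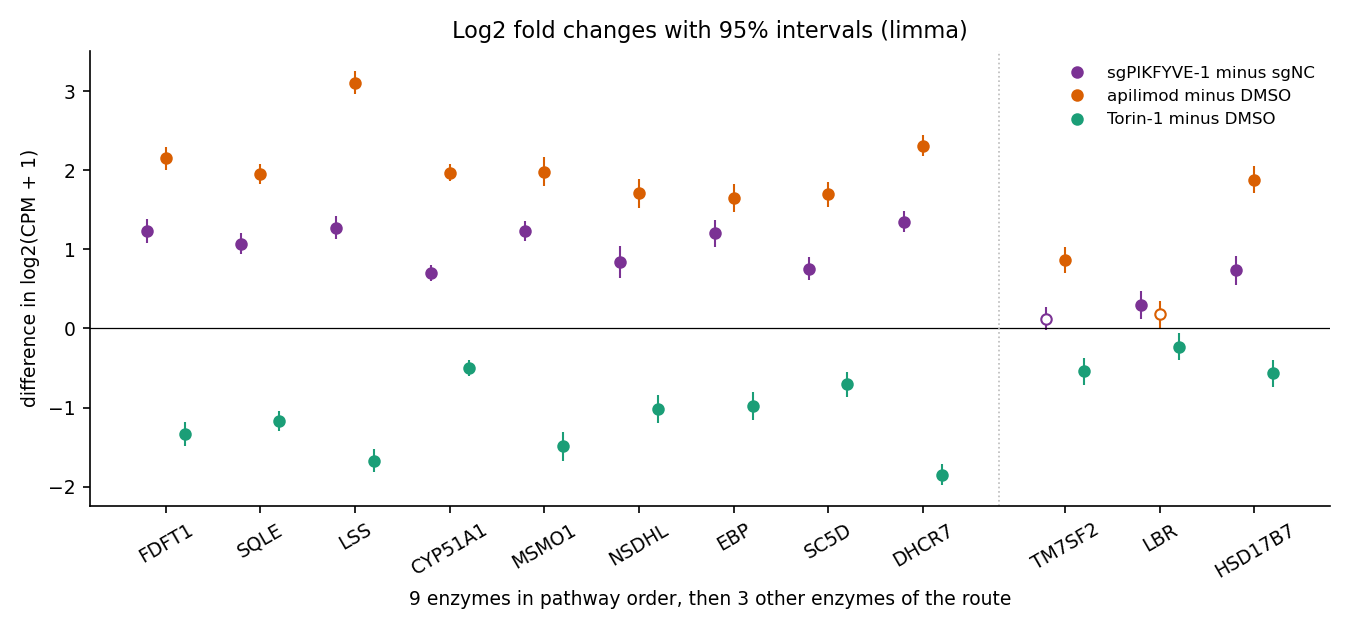
Difference in log2(CPM + 1) between treated and control groups with limma's 95% interval, for the 9 enzymes in pathway order and, right of the dotted line, 3 other enzymes of the route. Filled points passed the adjusted p of 0.05 and open points did not. LSS with apilimod, at 3.10, stands apart from the other enzymes, and CYP51A1 has the smallest difference with Torin-1, at -0.50.

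The direct contrast of apilimod with Torin-1 does not use the DMSO values for the difference. In it, 9 of 9 enzymes passed as higher with apilimod, against 26.2% of the 13520 genes tested (20.5% were lower), and 9 of 9 also exceeded a log2 fold change of 1.5, against 0.902%, and the groups overlapped for none of them, against 38.4% of genes without overlap in this direction. LSS had the highest log2 fold change of all genes tested, 4.77 (standard error 0.068, adjusted p = 2.45e-15 from limma), with means of 652 CPM with apilimod and 22.9 CPM with Torin-1, a 28.5-fold difference. DHCR7 followed among the 9 at 4.16 (0.061), an 18.4-fold difference, and ranked 7 of all genes. FDFT1, at 3.48, and MSMO1, at 3.47, were 11.6-fold and 11.5-fold higher with apilimod. SQLE stood at 3.13, NSDHL at 2.73, EBP at 2.63 and CYP51A1 at 2.47. SC5D had the smallest difference of the 9, at 2.40, which was still 5.36-fold. In this order LSS, DHCR7 and FDFT1 were separated from each other by their 95% intervals, as were MSMO1 from SQLE and SQLE from NSDHL, whereas the intervals of FDFT1 and MSMO1 and those of the 4 lowest enzymes overlapped with their neighbours. The median of the 9 enzymes was 3.13, against 0.020 over all genes tested.

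The unequal changes altered the make-up of the summed signal. LSS took 7.96% and 8.71% of the summed CPM of the 9 enzymes with DMSO, 17.2% and 16.1% with apilimod, and 5.33% and 5.16% with Torin-1. CYP51A1 went the other way under Torin-1, with 24.5% and 24.7% of the sum with DMSO and 35.7% and 36.2% with Torin-1. DHCR7 held 13.1% and 12.3% with DMSO and 7.09% and 7.11% with Torin-1. With sgNC, CYP51A1 made up 27.9% and 27.5% of the sum and with sgPIKFYVE-1 21.1% and 22.4%. SQLE kept a share between 10.5% and 13.4% in all 10 samples.

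**Figure D3:**
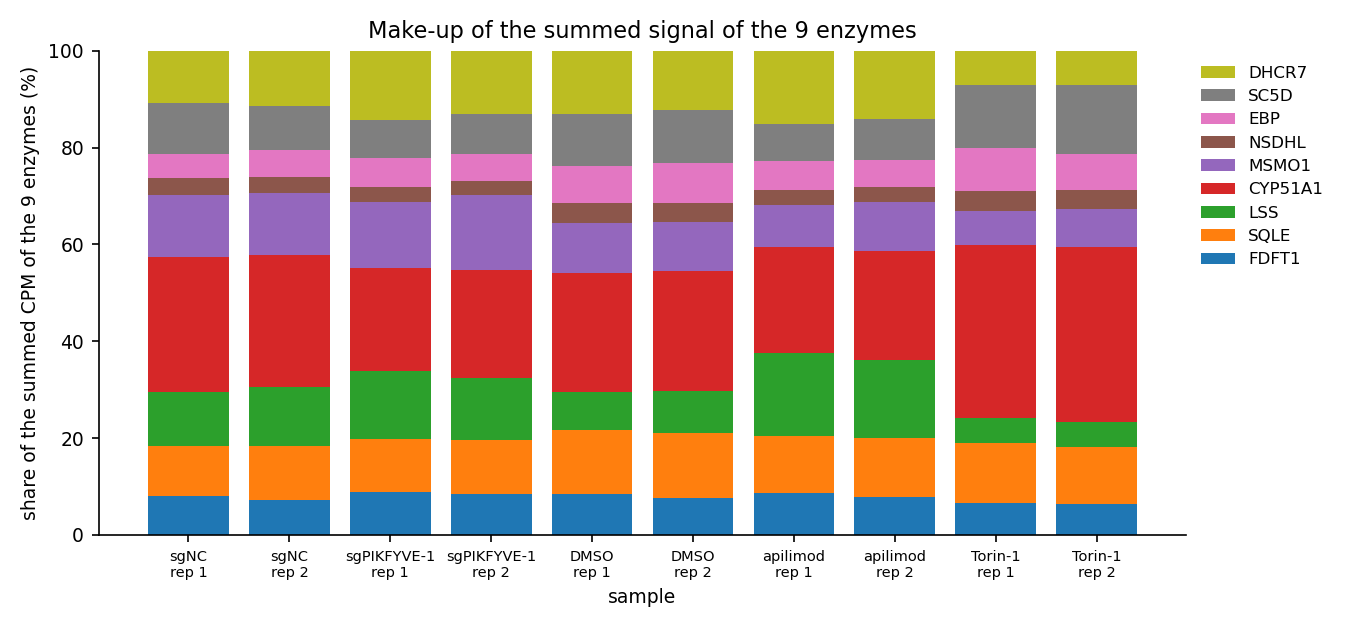
Share of each enzyme in the summed CPM of the 9 enzymes, in percent, for each of the 10 samples. The LSS share widens with apilimod, to 17.2% and 16.1%, and the CYP51A1 share with Torin-1, to 35.7% and 36.2%.

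Levels were compared between genes per length, as CPM per kilobase of the longest transcript with the best APPRIS tag. On this scale CYP51A1 led in every group, at 61.4 ± 0.36 CPM per kilobase with sgNC and 69.0 ± 1.05 with DMSO (SD, n = 2), though with sgPIKFYVE-1 its 100.3 and the 95.2 of MSMO1 overlapped within 1 SD of each. With DMSO, DHCR7, MSMO1, EBP, SQLE and SC5D followed between 42.8 and 39.5 CPM per kilobase, and from MSMO1 to SC5D each overlapped the next within 1 SD of both means. FDFT1 (27.2), NSDHL (18.7) and LSS (15.2 CPM per kilobase) were lowest. LSS was thus the lowest of the 9 per length with DMSO and, at 4.63 CPM per kilobase, with Torin-1, but with apilimod it stood at place 5 with 132 CPM per kilobase, overlapping SC5D within 1 SD of both means. NSDHL was lowest with sgNC, with sgPIKFYVE-1 and with apilimod, at 12.7, 23.1 and 62.3 CPM per kilobase. Using the union of all exons as the length kept CYP51A1 first in every group, but moved the others. With DMSO DHCR7 went from place 2 to 5 and NSDHL from 8 to 6, and with Torin-1 SC5D went from place 2 to 5. NSDHL was then no longer lowest in any group, standing at place 7 with sgNC and 8 with sgPIKFYVE-1 and apilimod, so the order below CYP51A1 depends on the transcript assumed.

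Besides the 9, 3 other enzymes of the route from squalene to cholesterol were examined. In the knockdown 2 of these 3 passed as higher and none as lower, with apilimod 2 as higher and none as lower, and with Torin-1 all 3 as lower. Among all genes tested the shares were 21.6% higher in the knockdown, 5.75% higher with apilimod and 21.8% lower with Torin-1. HSD17B7, the ketoreductase that completes the carbon 4 demethylation, rose by 0.73 in the knockdown and 1.88 with apilimod and fell by 0.57 with Torin-1. Its listed pseudogene HSD17B7P2 had 2.52 to 10.5 CPM, so reads may be split between them.

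The reduction at carbon 14 can be made by TM7SF2 or by LBR, which is also a receptor for lamin B at the inner nuclear membrane, and both had smaller log2 fold changes than any of the 9 enzymes in the knockdown and with apilimod. TM7SF2 had 59.7 and 62.7 CPM with DMSO, 117 and 108 CPM with apilimod and 43.7 and 39.8 CPM with Torin-1, log2 fold changes of 0.86 and -0.54 that passed the test. In the knockdown it had 72.9 and 71.7 CPM against 65.7 and 66.8 CPM, a log2 fold change of 0.12 that did not pass (adjusted p = 0.165 from limma). LBR had a log2 fold change of 0.30 in the knockdown (adjusted p = 0.00907) and 0.18 with apilimod (adjusted p = 0.222), both from limma. Its change of -0.23 with Torin-1 passed with an adjusted p of 0.0365 from limma but lost that call in 7 of 11 alternatives, and the knockdown call was lost in 4 of 10. The lost calls include those without sgNC replicate 2, without sgPIKFYVE-1 replicate 1, without either DMSO sample and without Torin-1 replicate 1.

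Several of the 9 enzymes need electrons or partner proteins. Of 8 such genes, 4 passed as higher and 2 as lower in the knockdown, 4 as higher and 1 as lower with apilimod, and 1 as higher and 7 as lower with Torin-1. Of all genes tested 21.6% were higher and 20.9% lower in the knockdown, 5.75% and 2.79% with apilimod, and 16.6% and 21.8% with Torin-1, so the 2 of 8 lower in the knockdown lie near the background. The 7 lower with Torin-1 became 4 without DMSO replicate 2 and 5 without Torin-1 replicate 1. Their median log2 fold changes were 0.13, 0.18 and -0.45. ERG28, a scaffold for the carbon 4 demethylation enzymes, had 59.4 and 55.7 CPM with DMSO, 161 and 168 CPM with apilimod and 34.9 and 31.7 CPM with Torin-1. Its mean with apilimod was 2.86-fold that with DMSO, and its log2 fold changes were 0.58 in the knockdown and -0.77 with Torin-1, all past the test. CYB5B, the cytochrome b5 of the outer mitochondrial membrane, also passed in each, at 0.76, 1.10 and -0.71. CYB5A, the microsomal cytochrome b5 that passes electrons to SC5D and MSMO1, passed as lower at -0.29 in the knockdown and -0.40 with Torin-1, and stood at 0.01 with apilimod (adjusted p = 0.963 from limma).

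POR, the reductase that feeds CYP51A1 and SQLE, had log2 fold changes of 0.26, 0.52 and -0.64, all past the test, but the knockdown call was lost in 4 of 10 alternatives, among them those without sgNC replicate 1 and without sgPIKFYVE-1 replicate 1. CYB5R3, the reductase of cytochrome b5, passed as lower with Torin-1 at -0.29, a call that was lost without DMSO replicate 2, and stood at 0.0047 in the knockdown and -0.05 with apilimod. PGRMC1, a membrane protein that binds cytochromes P450, stood at 0.38, 0.36 and -0.21, and its calls with apilimod and Torin-1 were lost in 4 and 6 of 11 alternatives, for apilimod without DMSO replicate 1 and without apilimod replicate 2, and for Torin-1 without DMSO replicate 2 and without Torin-1 replicate 1, among others. EBPL, a relative of EBP, had 12.7 and 15.3 CPM with DMSO and 11.9 and 14.2 CPM with apilimod, a log2 fold change of -0.09 (adjusted p = 0.811 from limma) where that of EBP was 1.65. With Torin-1 it stood at -0.50, a call lost in 4 of 11 alternatives, among them those without DMSO replicate 2 and without Torin-1 replicate 1. MARCHF6, a ubiquitin ligase known to mark SQLE for degradation, went against the enzymes, with 343 and 337 CPM with DMSO, 287 and 307 CPM with apilimod and 403 and 446 CPM with Torin-1. Its log2 fold change was -0.34 in the knockdown, 0.32 with Torin-1 and -0.19 with apilimod, where the call was lost in 5 of 11 alternatives, among them those without either DMSO sample and without apilimod replicate 1.

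Upstream, the 9 mevalonate pathway genes that supply farnesyl diphosphate and its relatives included 8 that passed as higher in the knockdown, 8 with apilimod and 9 that passed as lower with Torin-1. Over all genes tested, 21.6% were higher in the knockdown, 5.75% higher with apilimod and 21.8% lower with Torin-1. The 8 higher in the knockdown became 7 without the filter or without the variance trend, and the 9 lower with Torin-1 became 8. The gene lost in the knockdown was MVK, mevalonate kinase. Its log2 fold change there ran from 0.44 to 0.92 over all alternatives, including those with a sample left out. The median log2 fold changes of the 9 mevalonate pathway genes were 0.73, 2.04 and -1.02. HMGCS1, the HMG-CoA synthase, was highest in the knockdown and with apilimod, at 1.66 and 3.16, and PMVK, phosphomevalonate kinase, lowest, at 0.10 and 0.17, neither of which passed the test. With Torin-1, IDI1, the isopentenyl diphosphate isomerase, was lowest at -1.43, and GGPS1, which makes geranylgeranyl diphosphate, highest at -0.29, a call lost in 4 of 11 alternatives, among them those without DMSO replicate 1 and without Torin-1 replicate 2.

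In the list of sterol sensing and uptake, 11 genes were tested. In the knockdown 7 passed as higher and 1 as lower, with apilimod 7 as higher and none as lower, and with Torin-1 1 as higher and 5 as lower, with medians of 0.30, 0.72 and -0.23. The shares of all genes called were 21.6% higher and 20.9% lower in the knockdown, 5.75% and 2.79% with apilimod, and 16.6% and 21.8% with Torin-1. The 7 higher in the knockdown became 4 without the variance trend and 5 without the filter or without sgPIKFYVE-1 replicate 1. Among them the call of SREBF2, which encodes SREBP2, was lost in 6 of 10 alternatives, at a log2 fold change of 0.16, and those of SREBF1 and the lysosomal cholesterol transporter NPC1 in 2 of 10 each. INSIG1, the sterol sensor that holds SREBP precursors back and is itself a target of them, was at the end of the list each time, at 1.37, 2.36 and -2.18. The other ends were INSIG2 at -0.33 in the knockdown, MBTPS2 at -0.15 with apilimod, which did not pass, and MBTPS1 at 0.28 with Torin-1. The knockdown call of INSIG2 was lost without sgNC replicate 2.

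Genes of sterol export, storage and oxysterol action had no common direction. Of 10, 8 were tested, with 2 higher and 1 lower in the knockdown, none higher and 2 lower with apilimod, and 2 higher and 1 lower with Torin-1. Of all genes tested the calls were 21.6% higher and 20.9% lower in the knockdown, 5.75% and 2.79% with apilimod, and 16.6% and 21.8% with Torin-1. The Torin-1 counts fell to 0 higher and 0 lower without Torin-1 replicate 1, to 0 higher and 1 lower without DMSO replicate 2 or Torin-1 replicate 2, and to 1 higher and 0 lower without DMSO replicate 1. ABCA1, a cholesterol exporter, had 37.9 and 34.1 CPM with sgNC and 21.3 and 20.4 CPM with sgPIKFYVE-1, a log2 fold change of -0.76. With DMSO it had 6.25 and 5.31 CPM, with apilimod 2.04 and 2.12 CPM, and with Torin-1 8.76 and 9.49 CPM, log2 fold changes of -1.14 and 0.58, of which the call with Torin-1 was lost in 4 of 11 alternatives, among them those without DMSO replicate 2 and without either Torin-1 sample. SOAT1, which esterifies cholesterol for storage, was highest of the list in the knockdown at 0.60, and stood at 0.23 with apilimod, which did not pass. With Torin-1 the lowest was ACAT1, the mitochondrial acetoacetyl-CoA thiolase, at -0.24, a call lost in 3 of 11 alternatives, among them those without DMSO replicate 1 and without Torin-1 replicate 1. ACAT1 is not itself a gene of sterol export, storage or oxysterol action, and without it, a choice made after seeing the data, the 7 genes left gave 1 higher and 1 lower in the knockdown, 0 and 2 with apilimod, and 2 and 0 with Torin-1, with medians of -0.15, -0.07 and 0.10. The other gene called higher with Torin-1 was CYP46A1, cholesterol 24-hydroxylase, at 0.38 (adjusted p = 0.0492 from limma), a call lost in 7 of 11 alternatives, including each one that left out a DMSO or Torin-1 sample. With ACAT1 the median log2 fold changes of the list were -0.03, -0.03 and 0.09.

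**Figure D4:**
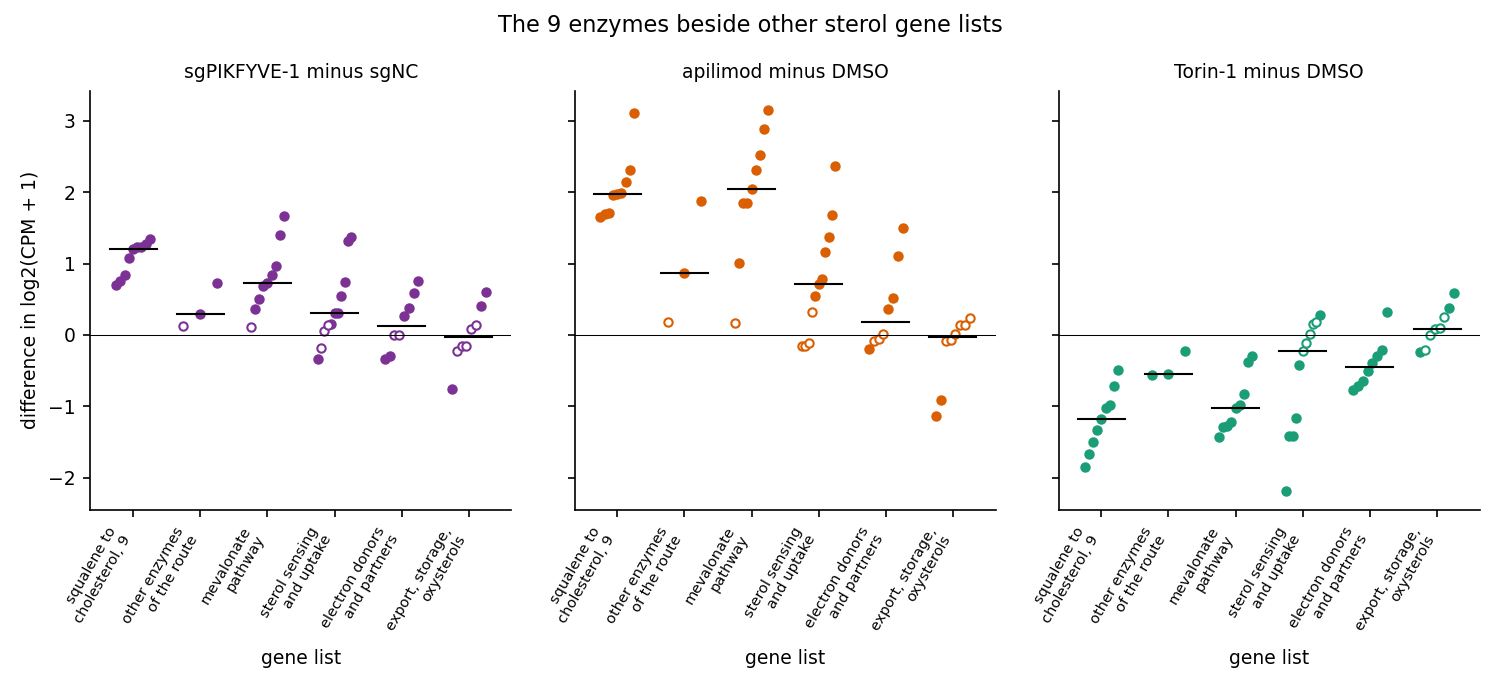
Difference in log2(CPM + 1) of each tested gene of 6 lists in the 3 comparisons with controls. Points are genes, filled where the adjusted p of limma was under 0.05, and black lines are medians of the lists. The 9 enzymes have medians of 1.20, 1.97 and -1.17, and the genes of export, storage and oxysterol action have medians near 0.

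Over the 10 samples, each taken as log2(CPM + 1) minus the mean of the controls of its table, the 9 enzymes were set against the mean of the other 8. Pearson's r was highest for SQLE and NSDHL, both 0.999, and lowest for CYP51A1, at 0.959. These points share their groups and their controls, and r is given as a description. Outside the 9 enzymes, over 13226 genes tested in both tables with a median r of 0.035, the 10 genes closest to the mean of the enzymes were PLA2G3, ACLY, FDPS, ACAT2, PDP2, FADS1, PCYT2, IDI1, FASN and GCH1, with r between 0.995 and 0.998. FDPS, ACAT2 and IDI1 are enzymes of the mevalonate pathway. ACLY, which makes cytosolic acetyl-CoA, FASN, the fatty acid synthase, and FADS1, a fatty acid desaturase, belong to fatty acid synthesis, and PCYT2 to the synthesis of phosphatidylethanolamine. PLA2G3 encodes a secreted phospholipase, PDP2 a phosphatase of pyruvate dehydrogenase, and GCH1 the first enzyme of tetrahydrobiopterin synthesis. Set against the same mean of the other 8 enzymes, 105 outside genes had a higher r than CYP51A1, and 0 had a higher r than SQLE or NSDHL against theirs.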

How the data were processed

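RNA-seq values of 10 QGP-1 samples were used. The authors removed ribosomal RNA per the labels, whereas their methods describe oligo(dT) selection. They used bcl2fastq 2.20, FastQC, Trimmomatic, edgeR and DESeq2 with build hg38, per the submitters' processing notes; the quantifier and annotation are not given in the sources used here. The values deposited by the authors are a signal on a CPM scale, scaled by the TMM method, with knockdown and drug samples in separate tables that were normalized separately. The design had assumed plain CPM, and the same test was kept. Of the low values, 65.1% to 68.9% were whole reads within a tolerance of 0.01. The rest were fractions of reads, so integer counts were not available for every gene, and count models were not applied. Depth was estimated from the spacing of low values as the library size after TMM scaling, and these limits cover counting error only. Dates stood in place of 27 gene names, which were replaced by the symbol of the gene ID.

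Using limma 3.58.1 (R 4.3.3; lmFit, eBayes with trend), log2(CPM + 1) was tested two-sided for genes whose mean in the table reached 1 CPM, over 4 knockdown samples or all 6 drug samples. Gene IDs were matched to GENCODE release 29 without version (35547 of 35606), and promoters are RefSeq's. The genes named are the 9 enzymes, PIKFYVE, all genes of the lists of other enzymes and of electron donors and partners, the highest and lowest of each other list per comparison, and the 10 genes with the profile closest to the enzymes. Also named are cell type markers and some genes whose call changed in the alternatives. Of the lists, 2 genes are not reported here. The members and lists were chosen with earlier results of these data known. The procedure was also run on simulated counts, with few changed genes and with the same added spread and depth throughout. The data differ from that, so the run does not show how the procedure performs on them. Alternatives were a pseudocount of 0.1, no filter, quantile normalization, rescaling to equal sums, no variance trend and a replicate block. Others were only the compared groups, an added fold cutoff, union exon lengths, and each sample of the compared groups left out in turn. Python 3.11.15 and matplotlib 3.10.9 made the figures.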

Additional observations from a re-analysis of the deposited data

How the results depend on the processing

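With 2 samples a group, the spread is borrowed across genes, and a fit that leaves a group with 1 sample assumes that it varies like the others. The direction and the call of each of the 9 enzymes held in all 387 refits of single enzymes, over the knockdown, apilimod, Torin-1 and apilimod against Torin-1. With an absolute log2 fold change of at least 1.5 required as well, the cutoff of the study's methods, 0 of 9 enzymes were called in the knockdown and 2 of 9 with Torin-1, DHCR7 and LSS, while with apilimod and in the direct contrast all 9 were; the cutoff alone removes them, since each of the 9 still passed the adjusted p. Over all genes, 5772 passed in the knockdown and 3709 without the variance trend. With apilimod 1155 passed, against 565 without the filter, 466 without the variance trend, and 596 to 833 with 1 sample left out (596 and 656 without DMSO replicate 2 or 1, 688 without apilimod replicate 1). The share of higher calls with apilimod was 67.4%, and 55.1% after quantile normalization or 54.2% after rescaling to equal sums. The cause was not tested.

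Deviations of same-numbered samples from their group means correlated at 0.037 in the knockdown table and 0.0426 to 0.104 between drug groups. Low values over all genes cannot show that the samples were unpaired, since a shared effect could be limited to some genes. With the replicate block, 9 of 9 enzymes passed in every comparison, and the count over all genes rose to 6111 in the knockdown and to 1756 with apilimod. Leaving out each sample of the compared groups in turn kept the direction of all 9 enzymes in every comparison. Over 40 genes outside the 9 enzymes, 90 refits of a single gene lost a call, 6 gained one, 31 turned the sign of a value and 1593 changed neither. With the block, PIKFYVE with apilimod and SCAP with Torin-1 gained a call and no gene of the lists lost one.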
